A study of Homo sapiens with 8 samples.

Results

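miR-33a and miR-33b are a pair of related microRNAs (miRNAs) that lie inside introns of the sterol regulatory genes SREBF2 and SREBF1. Their 4 mature products (hsa-miR-33a-5p, hsa-miR-33a-3p, hsa-miR-33b-5p and hsa-miR-33b-3p), the 5p and 3p strands of each hairpin, were taken by name from deposited read counts for 1818 mature miRNA names, and all 4 were among the 625 names abundant enough to be tested. The counts came from HCT116, a human colorectal carcinoma cell line, in which human DICER had been supplied as a rescue, with 2 libraries in each of 4 groups. The groups were R1855L, R821H and R1003Q, named for the amino acid substitution that the rescuing DICER carried, and wild-type (WT) DICER. The study title concerns the structure of DICER bound to a precursor miRNA in the act of cutting. The comparisons ask how each substitution changed the amounts of the miR-33 strands and the balance between the strands of a hairpin. The labels do not say what DICER of their own the cells retained or how the rescue was expressed. Nor do they say that replicates were separate cultures, and the p-values therefore reflect library-to-library spread that could be technical. In bulk RNA of this kind, a change in the cells present and a change in RNA per cell cannot be told apart.

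DICER is the RNase III enzyme that trims the loop off a precursor hairpin and leaves a short duplex, of which mainly 1 strand is kept in an Argonaute protein. SREBF2 encodes SREBP-2, the transcription factor that switches on cholesterol synthesis and uptake genes, and SREBF1 encodes the SREBP-1 factors, which mainly drive fatty acid synthesis. The miR-33 hairpins are transcribed with these host genes. Their 5p strands are known to repress the cholesterol exporter ABCA1 as well as genes of fatty acid oxidation, and rodents carry miR-33a but not miR-33b.

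The mature sequences are shown because the 5p strands share a seed, the stretch of bases 2 to 8 that selects targets, while the 3p strands do not. They were read 5′ to 3′ from RefSeq (GRCh38.p14), which held all 4 names, and capitals mark the seed.
miR-33a-5p: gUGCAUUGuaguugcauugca
miR-33b-5p: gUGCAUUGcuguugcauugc
miR-33a-3p: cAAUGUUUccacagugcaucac
miR-33b-3p: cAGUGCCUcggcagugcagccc
The 5p strands were identical at 18 of 20 compared bases. With positions counted from 1 at the 5′ end and the miR-33a base first, they differed by U9C and A10U, so reads of both strands are told apart mainly by adjacent middle bases. How the counting treated mismatches there is not stated, and all miR-33 counts were whole reads. The 3p strands were identical at 15 of 22 bases, with A3G, U6C and U7C inside the seed. Among 2370 mature human names in the RefSeq table, only the 2 miR-33 5p strands had the seed UGCAUUG. No other name had the seed of miR-33a-3p, whereas miR-33b-3p shared its seed with miR-515-3p and miR-519e-3p.

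The whole hairpins are shown because DICER cuts at the loop side of both strands, which are in capitals.
MIR33A: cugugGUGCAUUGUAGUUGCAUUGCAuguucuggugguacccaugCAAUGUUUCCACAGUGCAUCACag
MIR33B: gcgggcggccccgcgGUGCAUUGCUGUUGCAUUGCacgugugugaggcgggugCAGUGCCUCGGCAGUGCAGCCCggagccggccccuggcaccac
The stretch between the annotated strands was 19 bases in MIR33A and 18 bases in MIR33B. MIR33A lies on the plus strand at chr22:41900944-41901012 (GRCh38, GENCODE release 29) in intron 16 of the SREBF2 transcript ENST00000361204.8. MIR33B lies on the minus strand at chr17:17813836-17813931 in intron 16 of the SREBF1 transcript ENST00000261646.9. None of the 3 coding SREBF2 transcripts and none of the 5 coding SREBF1 transcripts that span a hairpin has an exon over it. The intron around MIR33A is 2471 bases long and that around MIR33B 475 bases. Host gene mRNA was not measured in these libraries.

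Target letters for the shared 5p seed are shown for ABCA1, the best-known target. Its 3′ untranslated region (UTR, 3313 bases, transcript ENST00000374736.7) held the letters CAATGCA, the reverse complement of the seed, 4 times on the sense strand, with the first 2 matches overlapping each other. The 24 bases shown around the first match lie at chr9:104784168-104784191 and those around the last at chr9:104782828-104782851. Both stretches are on the minus strand of GRCh38, with the letters of the named match in capitals. The second match runs from the end of the first stretch's capitals into its lower-case letters.
ABCA1 first match: ctgatactattCAATGCAatgcaa
ABCA1 last match: tttaattgcaaCAATGCAaaagcc
Of 851 other 3′ UTRs whose length was within 10% of that of ABCA1, 18.1% held the letters at least 1 time and 0.118% (1 UTR) at least as often as ABCA1. These matches describe the sequence, and no target was measured.

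Library totals ran between 462805 and 4269231 reads, and the 4 miR-33 strands together had between 1275 and 7909 reads in a library. A count of 0 would allow 3 reads, which is 0.78 CPM in the deepest and 5.52 CPM in the shallowest library on the TMM scale used here (counts per 1e6 reads after a scaling that balances composition). All 4 strands were above this in every library, with at least 68 reads. The largest ratio between neighbouring totals separated 3 deep libraries (R1855L replicate 1, R821H replicate 1 and WT replicate 2) from 5 shallow ones, which include both R1003Q libraries. Composition differed with depth for 36.5% of tested names (edgeR adjusted p under 0.05, with group in the model). Among the miR-33 strands, miR-33b-5p was lower in the deep libraries by 1.09 log2 units (SE 0.27, edgeR adjusted p = 0.0153) and miR-33b-3p by 0.51 log2 units (SE 0.19, adjusted p = 0.0389). The corresponding values were -0.27 (SE 0.17) for miR-33a-5p and 0.04 (SE 0.19) for miR-33a-3p, and neither passed. The 9 epithelial and colorectal marker miRNAs summed to 49300 and 38400 CPM in R1855L, 46700 and 43900 CPM in R821H, 57000 and 45900 CPM in R1003Q, and 49100 and 49800 CPM in WT. Most of that was miR-31-5p, at 35300 to 54000 CPM, and miR-200a-3p and miR-200b-3p were at 930 CPM or more in every library. The related markers miR-200c-3p and miR-141-3p were low, miR-200c-3p at 18.2 to 48.2 CPM and miR-141-3p at 11 to 43.8 CPM, and miR-215-5p had at most 5 reads, with 0 in 2 libraries. Of the 8 that were tested, 2 were lower in R1855L than in WT, where 5.44% of all tested names were called lower, namely miR-141-3p (-1.39, SE 0.30, edgeR adjusted p = 0.0422) and miR-429 (-1.04, SE 0.21, adjusted p = 0.0306). In R821H and in R1003Q against WT 0 of 8 were called by edgeR, with or without a term for depth. The part of this difference in the miR-33 values of R1855L was not tested. The 10 markers of other cells summed to between 900 and 1720 CPM. Most of that came from the neuron marker miR-9-5p (453 to 1190 CPM) and the endothelium marker miR-126-3p (342 to 528 CPM). The liver marker miR-122-5p was at 67.4 to 118 CPM. The myeloid miR-223-3p had at most 9 reads and the lymphoid miR-155-5p at most 1 read. These sums were 1720 and 900 CPM in R1855L, 1480 and 1110 CPM in R821H, 1220 and 1080 CPM in R1003Q, and 1000 and 1470 CPM in WT, so every mutant group overlapped WT.

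miR-33a-5p and miR-33b-5p, the strands that carry the shared seed, did not pass the test in any mutant against WT. hsa-miR-33a-5p had 824 and 1489 CPM in R1855L (replicates 1 and 2), 725 and 626 CPM in R821H, 947 and 917 CPM in R1003Q, and 1079 and 952 CPM in WT. The R1855L values lay on both sides of WT, whereas both R821H and both R1003Q libraries lay below both WT libraries. R1003Q replicate 1 (947 CPM) was close to WT replicate 2 (952 CPM). By library totals alone both R1003Q libraries (926 and 954 CPM) lay above WT replicate 2 (857 CPM). By group mean the order was R1855L (1156 ± 470 CPM, SD, n = 2), WT (1015 ± 89.5), R1003Q (932 ± 21.1) and R821H (676 ± 70), and R1855L overlapped WT and R1003Q. The log2 fold change was 0.19 (SE 0.31, 95% interval -0.53 to 0.90) in R1855L, -0.59 (SE 0.31, -1.30 to 0.13) in R821H and -0.12 (SE 0.31, -0.84 to 0.59) in R1003Q.

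miR-33b-5p was the most variable of the 4 strands. hsa-miR-33b-5p had 625 and 2202 CPM in R1855L, 408 and 473 CPM in R821H, 1085 and 928 CPM in R1003Q, and 1113 and 481 CPM in WT. The R1855L libraries differed more from each other than any other pair, and in R1855L, R821H and WT the shallow library was the higher one. Only the R821H group lay wholly below WT, with R821H replicate 2 (473 CPM) close to WT replicate 2 (481 CPM). By library totals alone R821H replicate 2 (472 CPM) lay above WT replicate 2 (433 CPM). Group means ran from 1414 ± 1120 CPM in R1855L through 1006 ± 110 in R1003Q to 440 ± 46.2 in R821H, with 797 ± 447 in WT (SD, n = 2 each). Log2 fold changes against WT were 0.82 (SE 0.60, 95% interval -0.57 to 2.21) in R1855L, -0.86 (SE 0.60, -2.25 to 0.54) in R821H and 0.34 (SE 0.59, -1.05 to 1.72) in R1003Q. Without R1855L replicate 2 the R1855L value was -0.39, so its sign rested on that library. The R821H value was -0.14 without WT replicate 1 and -1.42 without WT replicate 2.

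The 5p strands together, which carry the shared seed, came to 1449 and 3691 CPM in R1855L, 1133 and 1099 CPM in R821H, 2031 and 1845 CPM in R1003Q, and 2192 and 1433 CPM in WT. These sums are relative shares of reads on the TMM scale. Both R821H libraries had a lower sum than every other library, while R1855L held both the highest value and one within the WT range. Of all tested names, 13.1% likewise lay wholly lower in R821H than in WT, 17.3% than in R1855L and 19.7% than in R1003Q. The sum was not tested.

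**Figure D1:**
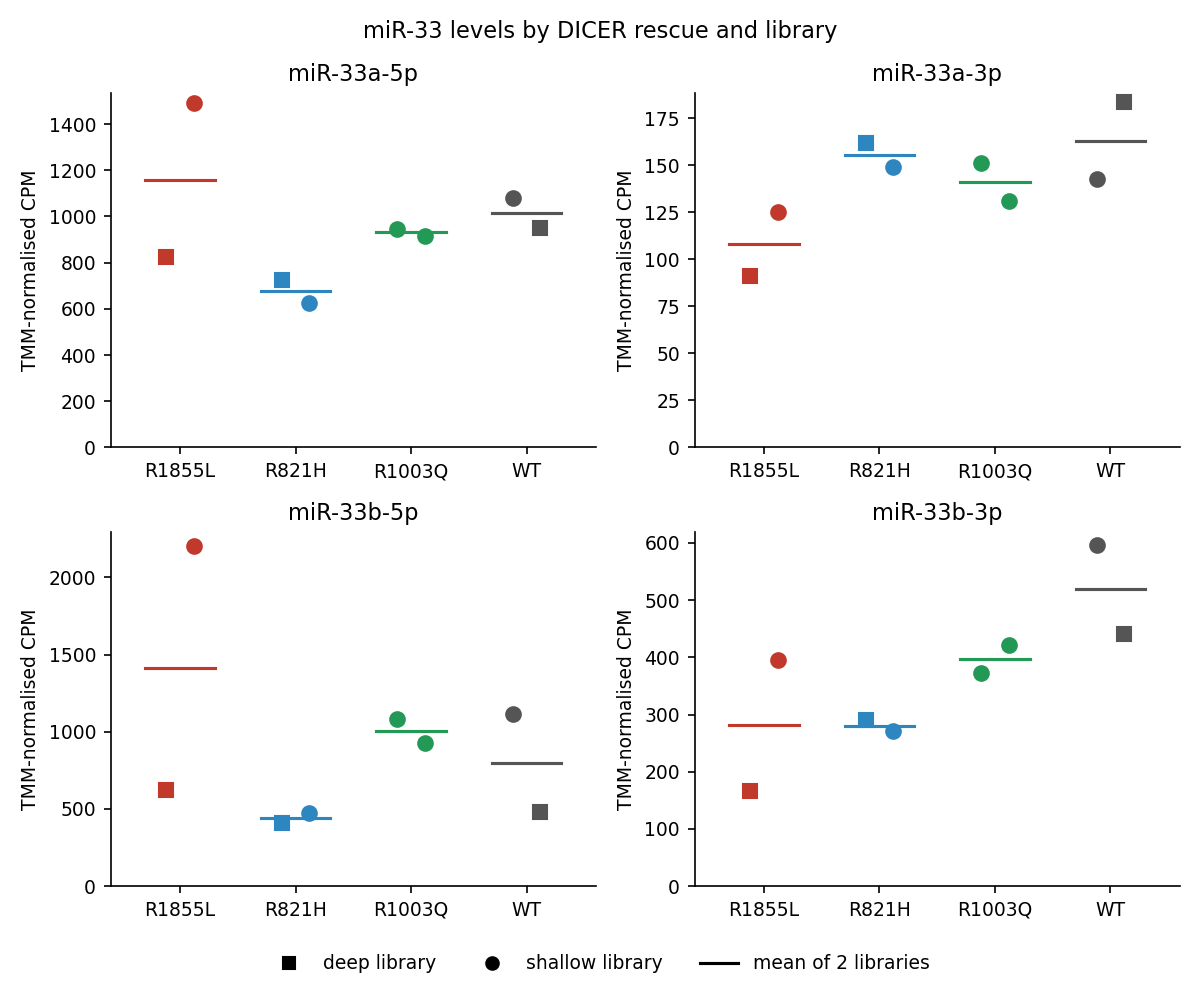
Levels of the 4 miR-33 strands in TMM-normalised CPM (vertical axis, from 0) by DICER rescue group (horizontal axis). Squares are deep and circles shallow libraries, and bars are means of 2 libraries. miR-33b-5p spans 625 to 2202 CPM within R1855L, and both 3p strands are lower in both R1855L libraries than in both WT libraries.

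On the TMM scale the 3p strands, the less abundant products of both hairpins, were lower in both R1855L libraries than in both WT libraries. Neither passed adjustment. hsa-miR-33a-3p had 91.0 and 125 CPM in R1855L, 162 and 149 CPM in R821H, 151 and 131 CPM in R1003Q, and 143 and 184 CPM in WT. Its log2 fold change was -0.61 (SE 0.28, edgeR adjusted p = 0.291) in R1855L, -0.07 (SE 0.27) in R821H and -0.21 (SE 0.27) in R1003Q. On the TMM scale its R1855L libraries lay below all 6 others, and the other 3 groups overlapped each other. By library totals alone R1855L replicate 2 (147 CPM) lay above R821H replicate 1 (142 CPM) and R1003Q replicate 2 (136 CPM). hsa-miR-33b-3p had 166 and 396 CPM in R1855L, 291 and 270 CPM in R821H, 373 and 422 CPM in R1003Q, and 597 and 440 CPM in WT. Every mutant library lay below both WT libraries for this strand on the TMM scale. By library totals alone R1855L replicate 2 (465 CPM) and R1003Q replicate 2 (439 CPM) lay above WT replicate 2 (397 CPM). Its log2 fold change was -0.90 (SE 0.40, edgeR adjusted p = 0.278) in R1855L, -0.88 (SE 0.39, adjusted p = 0.994) in R821H and -0.38 (SE 0.39, adjusted p = 0.898) in R1003Q. The 3 comparisons share the WT libraries.

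In counts, 0 of the 4 strands were called against WT in R1855L, where 5.76% of all 625 tested names were called, and 0 of 4 in R821H and in R1003Q, where 0% of tested names were called. DESeq2 also called 0 of 4 in each of these comparisons, beside 52 of all 625 names in R1855L, 1 in R821H and 0 in R1003Q. In each, 0 of 4 strands had an unadjusted edgeR p under 0.05. Over all 625 names, 115 had one in R1855L, 20 in R821H and 31 in R1003Q. Strands with both mutant libraries below both WT libraries on the TMM scale numbered 2 of 4 in R1855L and in R1003Q. In R821H they numbered 3 of 4. The shares over all tested names were 21.4% in R1855L, 17.8% in R1003Q and 13.1% in R821H. By library totals alone this order was lost for miR-33b-3p in R1855L and R1003Q, miR-33a-5p in R1003Q and miR-33b-5p in R821H. On that scale miR-33a-3p gained it in R821H and R1003Q. With deep and shallow libraries as a term in the edgeR model, 2 of 4 were called lower in R1855L, where that model called 16.6% of all tested names lower. These were miR-33b-3p (-0.98, SE 0.24, edgeR adjusted p = 0.00266) and miR-33a-3p (-0.65, SE 0.23, adjusted p = 0.0364). With that term miR-33a-5p had 0.15 (SE 0.20) and miR-33b-5p 0.72 (SE 0.33) in R1855L, and neither passed. In R821H miR-33b-3p had -0.83 (SE 0.23, edgeR adjusted p = 0.0524) with the term. R1855L had the lower total within each depth class, so a depth difference between R1855L and WT remains under that term.

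The mutants were also set against each other. In R821H against R1855L, 0 of 4 strands were called (3.84% of tested names). An unadjusted edgeR p under 0.05 was found for 2 of 4, and for 93 of all 625 tested names. DESeq2 called 0 of 4, and 38 of the 600 names it tested. miR-33b-5p had a log2 fold change of -1.68 (SE 0.61, 95% interval -3.10 to -0.26, edgeR adjusted p = 0.239) and miR-33a-5p -0.77 (SE 0.31, -1.49 to -0.05, adjusted p = 0.285). On the TMM scale both 5p strands were lower in both R821H libraries than in both R1855L libraries, as were 17.3% of all tested names. On that scale miR-33a-3p was higher in both, as were 20.6% of names. Without R1855L replicate 2 the values were -0.54 for miR-33b-5p and -0.31 for miR-33a-5p, and without R1855L replicate 1 they were -2.28 and -1.09. With the depth term both were called lower in R821H, where that model called 5.92% of tested names lower. The values were -1.39 (SE 0.34, edgeR adjusted p = 0.0235) for miR-33b-5p and -0.71 (SE 0.21, adjusted p = 0.0136) for miR-33a-5p. R1855L had a lower total than R821H within each depth class, so a depth difference between them remains under that term. In R1003Q against R1855L 0 of 4 were called (3.68% of tested names), and in R1003Q against R821H 0 of 4 (0%), by edgeR and by DESeq2. Over all names DESeq2 called 38 of 612 in R1003Q against R1855L and 0 of 625 in R1003Q against R821H. Neither of these comparisons had a strand at an unadjusted edgeR p under 0.05. Over all 625 names, 92 and 10 had one, in that order. On the TMM scale libraries of R1003Q lay wholly above those of R1855L for 1 of 4 strands (24.3% of names). They lay wholly above those of R821H for 3 of 4 (19.7% of names).

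Within a library the reads of the 5p and 3p strands of a hairpin can be divided by each other, which removes any effect of library scaling. miR-33b had 3.2 times as many 5p reads per 3p read in R1855L as in WT, a difference whose call did not hold under every setting. Of its reads, 79.0% (exact Clopper-Pearson 95% interval 76.9 to 81.0) and 84.8% (82.8 to 86.6) were 5p in R1855L, 58.4% (56.2 to 60.5) and 63.6% (59.7 to 67.4) in R821H, 74.4% (72.2 to 76.5) and 68.7% (65.7 to 71.7) in R1003Q, and 65.1% (63.1 to 67.1) and 52.2% (50.6 to 53.9) in WT. These intervals cover counting error only, since no molecular identifiers are described in the sources used here. The R1855L libraries had the highest 5p shares of all 8, and 32.2% of all hairpins likewise had both R1855L libraries further toward 5p than both WT libraries. In order of 5p share the R1003Q libraries came next, above both WT libraries. The R821H libraries lay within the WT range.

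On the log2 scale the miR-33b 5p to 3p ratio was 2.19 ± 0.40 in R1855L, 0.65 ± 0.22 in R821H, 1.34 ± 0.29 in R1003Q and 0.51 ± 0.55 in WT (SD, n = 2 each). The change in R1855L against WT was 1.68 (SE 0.40, 95% interval 0.78 to 2.58, limma adjusted p = 0.0348 over 174 hairpins), where 7.47% of the hairpins were called and 5.75% were called toward 5p. It ranked 13 of 174 in size toward 5p, and the median hairpin changed by 0.23. Between the deep libraries the change was 1.78 and between the shallow libraries 1.58. The adjusted p sat close to the threshold. It was 9.55e-07 with the depth term, where 14.4% of hairpins were called toward 5p, and 0.187 in a limma fit to only the 4 libraries compared. With the replicate number as a block it was 0.0753. Leaving out R1855L replicate 1 kept the call (1.96, adjusted p = 0.0345). Each of the other 7 libraries left out ended it, with a change of 2.06 and limma adjusted p = 0.0564 without WT replicate 1, 1.29 and 0.158 without WT replicate 2, and 1.40 and 0.113 without R1855L replicate 2. Without an R821H or R1003Q library the change stayed at 1.68, with adjusted p of 0.0642 and 0.0633 (R821H replicates 1 and 2) and 0.0841 and 0.0836 (R1003Q replicates 1 and 2).

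miR-33a kept a larger excess of 5p reads in every library. Its 5p share was 90.1% and 92.2% in R1855L, 81.8% and 80.8% in R821H, 86.2% and 87.5% in R1003Q, and 88.3% and 83.8% in WT. R1855L again had the highest shares and R821H the lowest. Of all hairpins, 13.2% likewise had both R821H libraries further toward 3p than both WT libraries. The log2 ratio was 3.37 ± 0.27 in R1855L, 2.12 ± 0.07 in R821H, 2.72 ± 0.11 in R1003Q and 2.64 ± 0.38 in WT (SD, n = 2 each). Against WT it changed by 0.73 in R1855L (SE 0.33, 95% interval -0.03 to 1.48, limma adjusted p = 0.263), by -0.53 in R821H (SE 0.33, -1.28 to 0.23) and by 0.08 in R1003Q (SE 0.33, -0.67 to 0.83), and none of these passed. Whether the R1855L change differed between miR-33a and miR-33b was not tested.

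**Figure D2:**
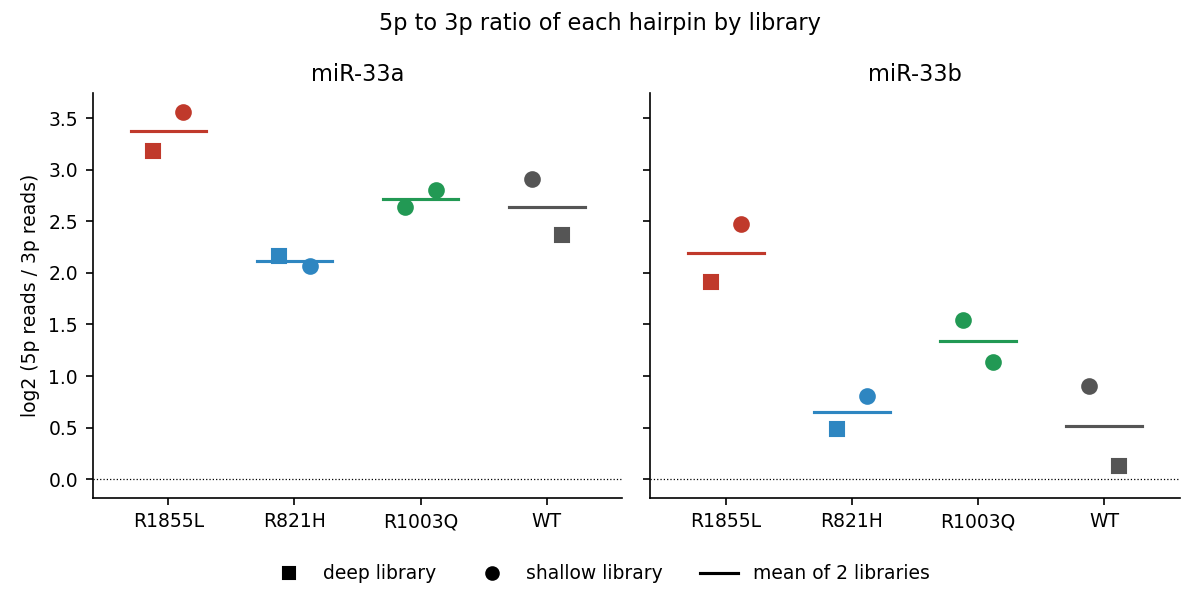
Log2 of 5p reads over 3p reads (vertical axis) of the miR-33a and miR-33b hairpins by DICER rescue group. Squares are deep and circles shallow libraries, bars are means of 2 libraries, and the dotted line marks equal reads. Both R1855L libraries lie above the other 6 for both hairpins, and within WT the deep library is the lower one.

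The miR-33b ratio did not pass against WT in the other mutants, where 0% of hairpins were called. In R1003Q it changed by 0.82 (SE 0.40, 95% interval -0.07 to 1.72, limma adjusted p = 0.79), with both R1003Q libraries above both WT libraries, as in 27.6% of all hairpins. That comparison sets 2 shallow R1003Q libraries against 1 shallow and 1 deep WT library, and with the depth term the change was 0.55 (SE 0.32). In R821H the miR-33b ratio changed by 0.13 (SE 0.40, -0.76 to 1.03).

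Between the mutants, R821H had fewer 5p reads per 3p read than R1855L for both hairpins. The difference was -1.55 for miR-33b (SE 0.40, 95% interval -2.44 to -0.65, limma adjusted p = 0.0506) and -1.25 for miR-33a (SE 0.33, -2.01 to -0.50, adjusted p = 0.0558). Neither passed, in a comparison where 6.32% of hairpins were called. The libraries did not overlap for either hairpin, as in 30.5% of all hairpins toward 3p. Both passed with the depth term, where that model called 14.4% of hairpins toward 3p. The limma adjusted p was 7.57e-06 for miR-33b and 0.000649 for miR-33a. R1855L had a lower total than R821H among the deep libraries (2241881 and 3340304 reads) and the shallow ones (462805 and 841857 reads). A depth difference between these mutants therefore remains under the term. In R1003Q against R1855L, where 7.47% of hairpins were called, the difference was -0.85 (SE 0.40, limma adjusted p = 0.364) for miR-33b and -0.65 (SE 0.33, adjusted p = 0.388) for miR-33a. With the depth term the miR-33b difference was -1.13 (SE 0.32) and passed (limma adjusted p = 0.00527), where that model called 10.3% of hairpins toward 3p. R1003Q had no deep library, so the depth effect in that model came from the other groups. In R1003Q against R821H, where 0% were called, the values were 0.69 (SE 0.40) and 0.61 (SE 0.33).

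An exact permutation test over all 8 libraries asked whether a ratio differed among the 4 groups at all. It compares the spread between groups over the 105 ways of pairing the libraries, so its smallest possible p is 0.00952. The exact p was 0.0286 for the miR-33a and 0.0476 for the miR-33b 5p to 3p ratio, and 0.0952 for both after adjustment over the 4 ratios tested this way.

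**Figure D3:**
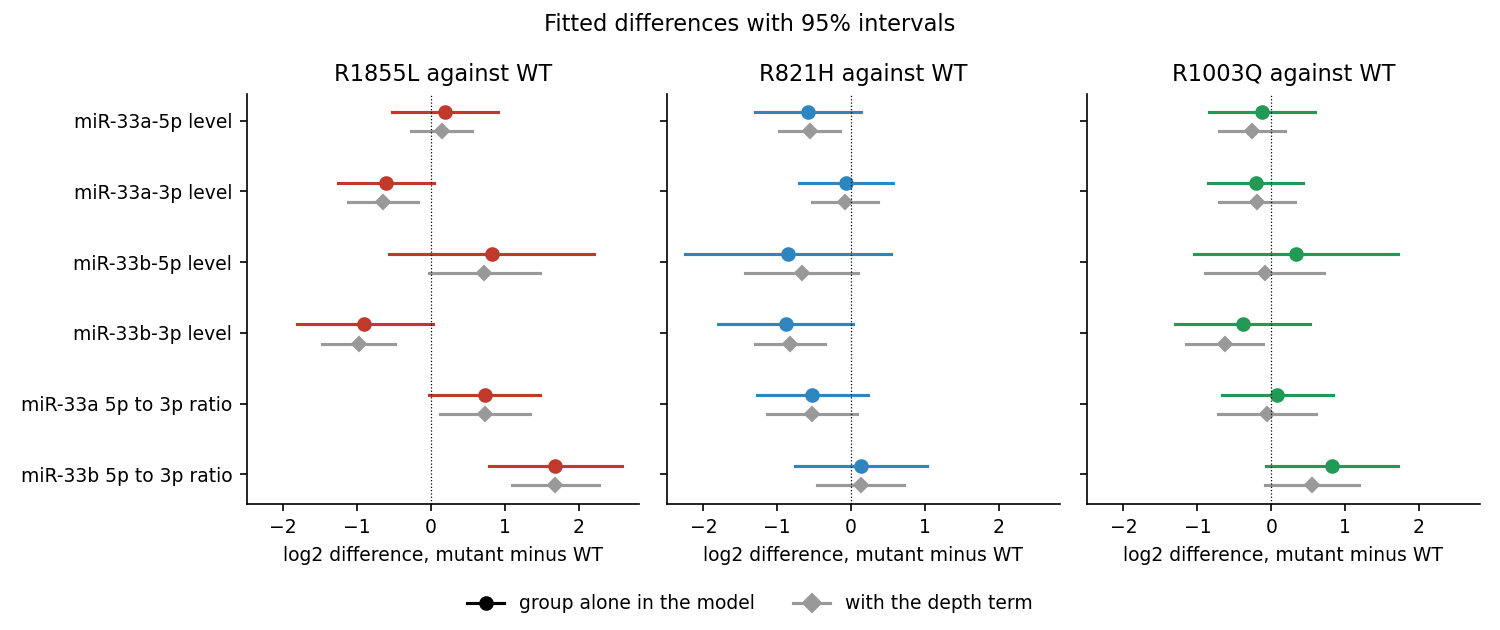
Fitted log2 differences of each mutant minus WT (horizontal axis) for the levels of the 4 strands and the 5p to 3p ratios of both hairpins (rows), with 95% intervals. Coloured circles are models with group alone and grey diamonds models with the depth term. In R1855L the 5p levels are centred above 0 and the 3p levels below 0, with intervals that include 0 under group alone, and the miR-33b ratio interval runs from 0.78 to 2.58.

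**Figure D4:**
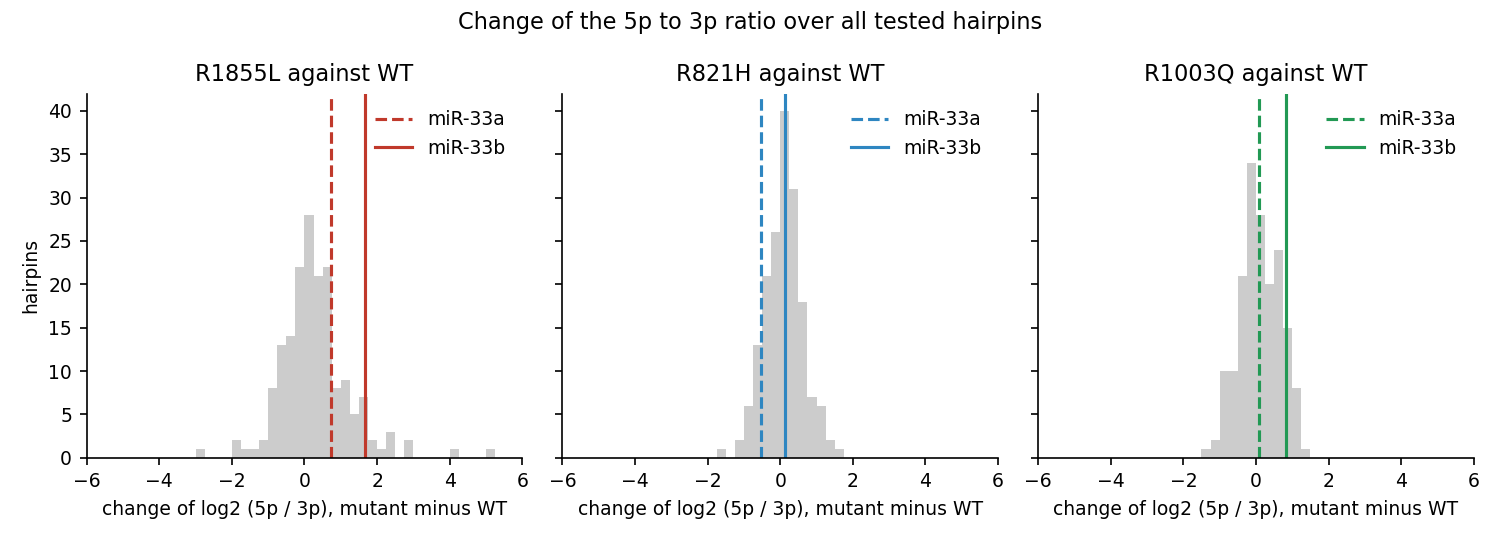
Histograms of the change in log2 5p to 3p ratio, mutant minus WT (horizontal axis), over 174 tested hairpins (count on the vertical axis). Lines mark miR-33a (dashed) and miR-33b (solid). In R1855L miR-33b, at 1.68, lies in the upper tail and miR-33a, at 0.73, on the upper shoulder.

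The share of the seed supplied by each gene was read from the ratio of miR-33a-5p to miR-33b-5p. miR-33a gave 56.9% and 40.3% of the 5p reads in R1855L, 64.0% and 57.0% in R821H, 46.6% and 49.7% in R1003Q, and 49.2% and 66.4% in WT. The log2 ratio of miR-33a-5p over miR-33b-5p was -0.08 ± 0.68 in R1855L, 0.62 ± 0.30 in R821H, -0.11 ± 0.13 in R1003Q and 0.47 ± 0.73 in WT (SD, n = 2 each). In every group with both depths the deep library had the higher ratio, with 0.98 in the deep and -0.05 in the shallow library of WT, and every mutant group overlapped WT. R821H exceeded R1855L by 0.70 on average, but R821H replicate 2 (0.41) and R1855L replicate 1 (0.40) were nearly equal. Without R1855L replicate 2 that difference was 0.22. Both R821H libraries lay above both R1003Q libraries. The exact permutation p among the 4 groups was 0.514 (adjusted 0.514).

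Among the 3p strands miR-33b was the more abundant in every library. The log2 ratio of miR-33a-3p over miR-33b-3p was -1.26 ± 0.56 in R1855L, -0.85 ± 0.01 in R821H, -1.49 ± 0.27 in R1003Q and -1.66 ± 0.57 in WT (SD, n = 2 each). Both R821H libraries (-0.85 and -0.86) lay above all 6 others, though R1855L replicate 1 was at -0.87. The average difference was 0.81 over WT and 0.41 over R1855L, and R1003Q minus R821H was -0.64. Without R1855L replicate 2 the difference over R1855L was 0.02. R1855L and R1003Q overlapped WT and each other. The exact permutation p was 0.381 (adjusted 0.508). Groups of 2 allow no exact test between single pairs of groups below the usual threshold, so these differences are given without one.

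**Figure D5:**
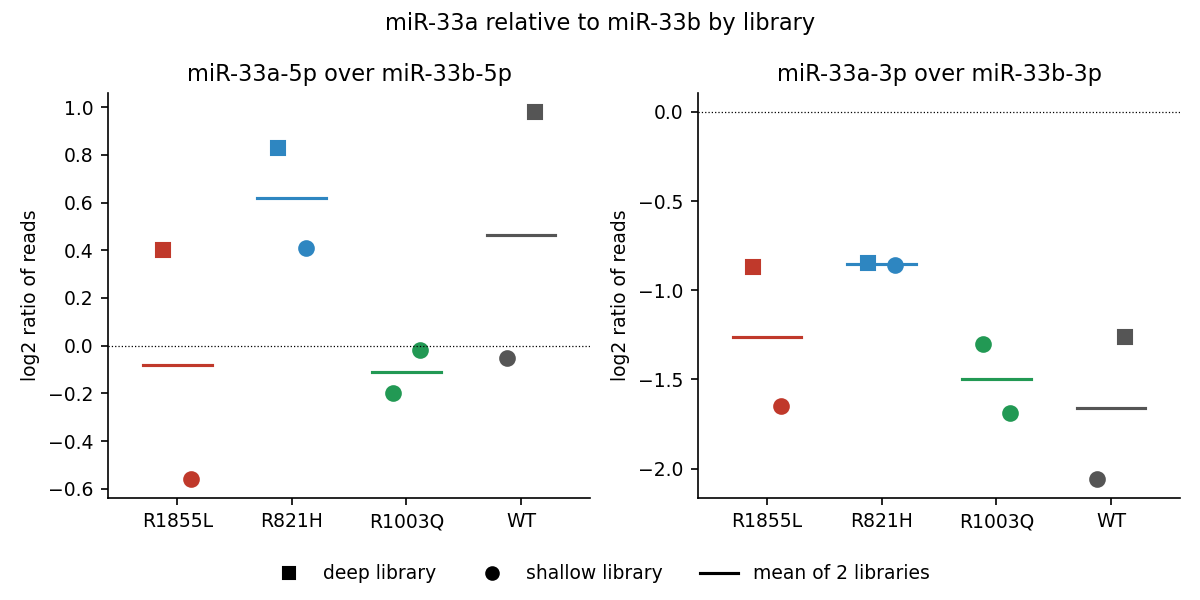
Log2 ratio of miR-33a to miR-33b reads (vertical axes, different ranges) for the 5p strands (left) and the 3p strands (right) by DICER rescue group. Squares are deep and circles shallow libraries, and bars are means of 2 libraries. The 5p ratio lies on both sides of 0 within R1855L and within WT, while the 3p ratio is below 0 in every library.

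Over the 8 libraries the log2 levels of miR-33a-5p and miR-33b-5p had a Pearson r of 0.88, against 0.58 for the 3p strands, -0.13 for miR-33a-5p with miR-33a-3p and 0.44 for miR-33b-5p with miR-33b-3p. These coefficients describe libraries that share depth classes and scaling, and carry no test. Among 433 other names with a mean of at least 20 CPM, the pattern of miR-33b-5p was most like that of miR-30b-5p (r = 0.985), miR-93-3p (0.966) and miR-4454 (0.937). That of miR-33a-5p was most like miR-93-3p (0.946), miR-96-5p (0.919) and miR-335-3p (0.907). miR-33a-3p was most like miR-455-3p (0.894), miR-140-5p (0.879) and miR-766-3p (0.862), and miR-33b-3p most like miR-744-3p (0.934), let-7d-3p (0.929) and miR-1910-5p (0.905).

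Of 29 listed miRNAs tied to cholesterol or fatty acid genes, 26 were tested. In R1855L against WT 3 were called lower, as were 5.44% of all tested names, and 0 higher, with a median log2 fold change of 0.00 beside 0.13 over all tested names. The 3 were miR-27b-3p, a repressor of several lipid genes (-1.86, SE 0.23, edgeR adjusted p = 0.00513), miR-185-5p, which represses SREBF2 (-1.70, SE 0.20, adjusted p = 0.00513), and miR-128-3p, which represses ABCA1 (-1.57, SE 0.24, adjusted p = 0.00936). In R821H and R1003Q 0 of 26 were called by edgeR, with medians of 0.04 and -0.16 beside 0.04 and 0.06 over all tested names. Of 35 listed miRNAs in introns of protein-coding genes, 34 were tested and 3 were called lower and 0 higher in R1855L, with a median of -0.23. They were miR-25-3p, from an intron of MCM7 (-1.92, SE 0.23, edgeR adjusted p = 0.00513), miR-128-3p, which is on both lists, and miR-140-3p, from an intron of WWP2 (-1.53, SE 0.24, adjusted p = 0.0108). In R821H and R1003Q 0 of 34 were called by edgeR, with medians of 0.03 and -0.21. With the depth term the R1855L counts were 2 higher and 8 lower of 26 lipid-linked names, and 3 higher and 12 lower of 34 intronic names, where that model called 11.7% of all tested names higher and 16.6% lower. In R821H it called miR-185-5p of the lipid-linked list lower, with a log2 fold change of -1 (SE 0.19, edgeR adjusted p = 0.00246). Of the intronic list it called the let-7 family member miR-98-5p lower in R821H (-1.46, SE 0.22, adjusted p = 0.000143), among 1.76% of tested names called lower. In R1003Q it called miR-98-5p lower (-1.17, SE 0.24, edgeR adjusted p = 0.0173), among 0.32% of tested names. The miR-33 strands themselves are not on either list.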

How the data were processed

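Small RNA libraries were made from 100 µg of total RNA by AQ-seq, a protocol with reduced ligation bias, and sequenced on a NovaSeq, per the labels' protocols. The submitters' processing notes name cutadapt, BWA, bedtools and the builds hg38 and mm10. No version, setting or miRNA annotation is named there. The authors deposited estimated counts per mature miRNA name for each library, not normalised. Some names carry fractions of a read. All miR-33 counts were whole, and a name missing from a library counted as 0.

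Rounded counts went into edgeR 4.0.16 (R 4.3.3) for the test of levels (filterByExpr, TMM, robust quasi-likelihood fit with group as the factor over 8 libraries, Benjamini-Hochberg adjustment over 625 names, threshold 0.05). SE is the absolute log2 fold change over the square root of F. Strand ratios (pseudocount 0.5) were tested with limma 3.58.1 in 174 hairpins with at least 80 reads per strand, the variance prior following the mean log2 reads. Both were tested on simulated data. The filter, library scaling, DESeq2 1.42.0, samples fitted, replicate block, depth term, pseudocount, read minimum and each left-out library were varied, and the variance prior after seeing the data. Sequences came from RefSeq and annotation from GENCODE release 29. Members and lists were chosen with earlier results of these data known. Named miRNAs are the 4 members, for each the 3 names with the highest Pearson r of log2 CPM, and called members of the lipid-linked and intronic lists. Cell type markers and miRNAs sharing a member's seed are named beside them, the markers chosen after their values were seen.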

Additional observations from a re-analysis of the deposited data

How the results depend on the processing

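Settings were compared over 48 differences (4 levels, 2 strand ratios and 2 ratios of miR-33a to miR-33b in 6 comparisons). Of 300 values under other settings, 284 kept direction and, where tested, side of the threshold. Part of this count was fixed, since the ratios of miR-33a to miR-33b had no threshold and the replicate block could not move them. Only the miR-33b ratio in R1855L against WT passed in the main fit, so most kept values were uncalled ones that stayed uncalled. The depth term brought values past the threshold for miR-33a-3p (-0.65) and miR-33b-3p (-0.98) in R1855L against WT, for miR-33a-5p (-0.71), miR-33b-5p (-1.39) and the ratios of miR-33a (-1.25) and miR-33b (-1.55) in R821H against R1855L, and for the miR-33b ratio (-1.13) in R1003Q against R1855L. It turned the sign in R1003Q against WT of miR-33b-5p (-0.09) and the miR-33a ratio (-0.06). Without a filter miR-33b-5p passed in R821H against R1855L (-1.58), and by library totals alone miR-33b-3p turned to -0.21 there. In that comparison the ratios of miR-33a (-1.25) and miR-33b (-1.55) passed at 400 reads per strand, and that of miR-33b (-1.55) with the prior on summed reads. The miR-33b ratio in R1855L against WT (1.68) failed in the fit to 4 libraries and with the replicate block, which changed no other call. The labels give no shared source for a number, and deviations of same-numbered libraries correlated at between -0.67 and 0.50. Replicate 1 was the shallow library in WT but the deep one in R1855L and R821H. The correlation was -0.64 for R1855L with WT, -0.67 for R821H with WT and 0.50 for R821H with R1855L. With R1003Q, where both libraries were shallow, it ran between -0.11 and 0.07. The cause was not tested.

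With each library left out, the log2 ranges of levels and strand ratios that crossed 0 or the threshold were as follows. In R1855L against WT they were -0.32 to 0.44 for miR-33a-5p, -0.39 to 1.54 for miR-33b-5p, -1.66 to -0.51 for miR-33b-3p (called only without R1855L replicate 2) and 1.29 to 2.06 for the miR-33b ratio. In R821H against WT they were -0.25 to 0.05 for miR-33a-3p and -0.25 to 0.52 for the miR-33b ratio. In R1003Q against WT they were -0.24 to 1.06 for miR-33b-5p and -0.19 to 0.35 for the miR-33a ratio. In R821H against R1855L they were -0.45 to 0.73 for miR-33b-3p and -1.83 to -1.26 for the miR-33b ratio (called only without R1855L replicate 1). In R1003Q against R1855L they were -0.62 to 0.16 for miR-33a-5p and -1.08 to 0.67 for miR-33b-5p. Ratios of miR-33a to miR-33b, which had no test, crossed 0 for 5p in R821H against WT (-0.37 to 0.66) and R1003Q against R1855L (-0.50 to 0.46), and for 3p in R1003Q against WT (-0.23 to 0.57) and R1003Q against R1855L (-0.63 to 0.16). The 3p ratio in R1855L against WT came to 0.00 at its lowest. Calls over all names in R1855L against WT numbered 36, against 53 unfiltered, 14 by library totals, 2 in the fit to 4 libraries, 19 with the block, 177 with the depth term and 15 to 27 with a library left out. Called ratios numbered 13, against 4 in the fit to 4 libraries, 9 with the block, 32 with the depth term and 4 to 14 with a library left out.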
